A study of Mus musculus with 96 samples.

Results

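The comparison described here sets 12 heat-only libraries against the 12 flash frozen libraries of the same livers, 24 of the 96 samples of the series. Members were chosen by label and libraries paired by the animal code in the titles. The livers came from 12 male B6C3F1 mice, a hybrid strain used in toxicology, aged 10 to 11 weeks. Phenobarbital, a sedative known to induce drug metabolism in liver, had been given to 6 animals at 600 ppm in the drinking water for 7 days, and the other 6 were controls at 0 ppm. For both states, pieces of several lobes had been mixed, flash frozen and stored at −80 °C. The frozen RNA was isolated with RNAzolRT and an RNeasy MinElute column. The heat-only portions were cut from that frozen liver, kept for 3 months in buffered formalin, embedded in paraffin, and incubated for 18 h at 55 °C without organocatalyst while RNA was isolated with the AllPrep kit. Fixation, embedding, incubation and kit therefore changed together between the states and cannot be told apart.

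Formalin forms methylol adducts and methylene bridges on RNA bases and proteins, and it leaves RNA that is fragmented and read poorly by reverse transcriptase. Heating in buffer reverses part of these adducts. Libraries had been depleted of ribosomal RNA and kept strand, so they held messenger RNA with or without a poly(A) tail, unspliced nuclear RNA, small structured RNAs and mitochondrial transcripts side by side.

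Sequences of 6 small RNAs are shown first, because they are among the largest named changes, which were limited to genes of at least 5 CPM whose states did not overlap and left out predicted genes. The mitochondrial tRNA genes mt-Tm (tRNA for methionine, chrM:3845-3913, plus strand) and mt-Tq (tRNA for glutamine, chrM:3772-3842, minus strand) were higher in heat-only liver, and capitals mark their anticodons. Snord17 (chr2:144265979-144266216, minus strand) and Snora23 (chr7:110046364-110046547, plus strand) are small nucleolar RNAs, guides for the chemical modification of other RNAs, and were lower. Capitals mark the C box motif ATGATGA and the D box motif CTGA in Snord17, and the ACA motif that lies 3 bases before the end of Snora23. These are GENCODE M21 transcripts on GRCm38.
mt-Tm: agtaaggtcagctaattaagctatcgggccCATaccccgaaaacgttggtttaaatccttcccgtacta
mt-Tq: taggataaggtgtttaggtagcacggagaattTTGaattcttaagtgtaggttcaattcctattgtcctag
Snord17: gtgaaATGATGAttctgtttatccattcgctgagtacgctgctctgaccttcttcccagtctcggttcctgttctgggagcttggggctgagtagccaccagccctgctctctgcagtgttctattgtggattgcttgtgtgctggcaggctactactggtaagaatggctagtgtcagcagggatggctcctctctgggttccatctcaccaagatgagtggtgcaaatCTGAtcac
Snora23: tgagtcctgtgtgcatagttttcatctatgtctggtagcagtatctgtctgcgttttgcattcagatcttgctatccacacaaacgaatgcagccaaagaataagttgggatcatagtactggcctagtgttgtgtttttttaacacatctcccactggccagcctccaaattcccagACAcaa

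Among 1507 annotated snoRNA transcripts, searched on the transcript strand, ATGATGA occurred in 282 (18.7%), ATGATGA with CTGA after it in 265 (17.6%), and ACA 3 bases before the end in 276 (18.3%). The other pair are annotated microRNA precursors, Mir6236 (mature form at chr9:110281353-110281371, plus strand) and Mir6240 (chr5:114851973-114851998, plus strand), both higher in heat-only liver. Their mature sequences come from RefSeq on GRCm38.p6, with the seed, bases 2 to 8, in capitals. The seeds differ. The counts cover the whole precursor and do not show that a mature microRNA was present. Reads at Mir6236 and Mir6240 were not checked against ribosomal RNA, so their counts need not come from the precursors.
Mir6236: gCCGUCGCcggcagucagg
Mir6240: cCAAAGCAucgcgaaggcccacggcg

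The frozen libraries held 14527636 to 18442730 counts on genes and the heat-only libraries 6445043 to 12229833. The heat-only total was lower in 12 of 12 animals (15643920 ± 1177567 against 9852198 ± 1681121, SD, n = 12; two-sided exact paired permutation test, adjusted p = 0.000698, with 0.000488 the smallest unadjusted p that 12 pairs allow). Hepatocyte transcripts, such as Alb, were abundant in every library, and 1 of 8 pancreatic acinar and 2 of 6 muscle markers passed the filter on low counts. The phenobarbital animals 18B and 18D were singled out after the heat-only values were seen. The Dixon criterion used further below marked neither for total counts or mitochondrial share. Animal 18D gave the smallest total, and these animals gave the highest mitochondrial shares, 16.5% for 18B and 13.1% for 18D. Counts of called genes over all genes in each comparison are given with and without both. Counts by class and list are given only with both.

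With each animal as a block, edgeR called 4629 of 13889 genes higher in heat-only liver (33.3% of genes tested) and 4645 lower (33.4%) at an adjusted p of 0.05. Most changes were small, with a median absolute log2 fold change of 0.42 among called genes. A rise of more than 1 on the log2 scale was seen for 274 called genes and a fall of more than 1 for 216. For 403 genes (2.9%) all 12 heat-only values lay above all 12 frozen values, and for 996 genes (7.17%) all lay below. Without animals 18B and 18D the calls were 4790 higher and 4175 lower. The split depends on scaling, because a fold change is relative to the scaling used. With TMM scaling 49.9% of calls were higher and the median gene was at 0.01. With library totals alone 77.9% were higher (8057 higher and 2287 lower), and the median gene moved to 0.27. All changes below are relative to TMM scaling. In these bulk samples, fewer cells of a type and less RNA per cell cannot be told apart.

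Mitochondrially encoded genes rose together. The mitochondrial genome encodes subunits of the respiratory chain and the tRNAs that its own ribosomes use. Their share of counts ran from 2.04% to 3.30% in frozen liver, with a median of 2.44%, and from 4.96% to 16.5% in heat-only liver, with a median of 7.03%. The 12 shares of each state did not overlap, and the rise was present in 12 of 12 animals (5.72 ± 3.32 percentage points, SD of the paired differences, n = 12; exact paired permutation test, adjusted p = 0.000698).

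**Figure D1:**
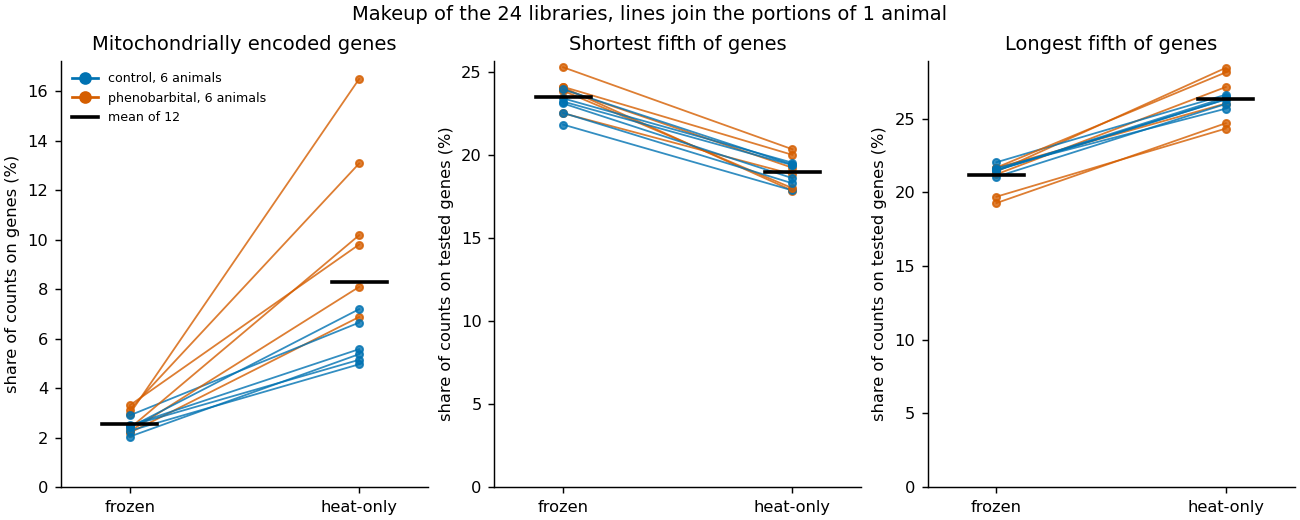
Share of counts on mitochondrially encoded genes, on the shortest and on the longest of 5 length bins, in percent, with 1 line per animal from its frozen to its heat-only library and black bars for the mean of 12. The mitochondrial share rises in every animal, to between 4.96% and 16.5%, and the steepest lines are phenobarbital animals. The shortest bin falls from 23.5% to 19.0% and the longest rises from 21.2% to 26.3%.

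All 14 mitochondrial genes that could be tested were called higher, 7 of 13 protein genes (median log2 fold change 1.44) and 7 of 22 tRNA genes (median 1.65). The genes of the 2 mitochondrial rRNAs were not in the table. The 6 untested protein genes had at most 20 counts each over the 24 libraries of both states, and whether this came from the counting step was not tested. The mitochondrial share therefore covers the genes that were counted, not the whole mitochondrial transcriptome. mt-Nd1 (chrM:2751-3707), a complex I subunit, had a level of 2234, 2880 and 3875 CPM (counts scaled to a common library size; lowest, median and highest) in frozen liver and 4994, 7660 and 17841 CPM in heat-only liver. The states did not overlap, and the log2 fold change was 1.44 ± 0.11 (SE; adjusted p = 3.8e-11). mt-Co1 (chrM:5328-6872), the catalytic subunit of cytochrome c oxidase, moved from 11748, 13835 and 19477 CPM to 20879, 28844 and 63790 CPM, again without overlap (1.13 ± 0.10, adjusted p = 1.34e-09). The complex I subunits mt-Nd5 and mt-Nd2 rose by 1.77 ± 0.13 and 1.66 ± 0.13. mt-Nd5 lay between 1942 and 2782 CPM in frozen and between 4984 and 18875 CPM in heat-only liver.

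Counts on tRNA genes of the same genome moved as far, at much lower levels. Whether these reads came from mature tRNAs or from longer transcripts was not tested. mt-Tm was measured at 3.08, 4.98 and 7.49 CPM in frozen liver and 9.72, 18.8 and 35.3 CPM in heat-only liver, with no overlap (1.88 ± 0.13, adjusted p = 1.27e-11). mt-Tq went from 1.44, 2.43 and 4.66 CPM to 5.57, 7.18 and 9.51 CPM (1.65 ± 0.14). The steepest of the 7 was mt-Tp, the tRNA for proline, at 2.45 ± 0.16. Its lowest heat-only value, 2.10 CPM, lay just inside the frozen range, which ended at 2.12 CPM. All 7 protein genes but 3 of the 7 tRNA genes had states that did not overlap.

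The rise differed between the treatments. The mitochondrial share rose by 8.06 ± 3.24 percentage points in phenobarbital animals and by 3.39 ± 0.80 in controls (SD, n = 6 each; difference 4.67, two-sided exact permutation test, p = 0.00433, adjusted p = 0.0433 over 20 measures). Without animals 18B and 18D the difference was 2.82 and no longer passed (adjusted p = 0.19). Total counts fell by 6657593 in phenobarbital animals and fell by 4925851 in controls, a difference of −1731742.3 (exact permutation p = 0.00216, adjusted p = 0.0433), and it was −1173640 without the same animals (adjusted p = 0.286). With 18B and 18D both left out, the smallest p this test can give is larger, and 1 measure alone could not pass adjustment. The lost calls therefore do not show whether the differences rest on these animals. Leaving out 18D alone gave −1334790 counts (adjusted p = 0.13) and 4.29 points (adjusted p = 0.0866). Leaving out control 21C alone gave −1318370 counts (adjusted p = 0.108) and 4.74 points (adjusted p = 0.108). The difference in share also missed the threshold without 82B, 8A, 8C or 8D, at 4.66, 4.53, 4.53 and 4.61 points (adjusted p = 0.0866, 0.108, 0.108 and 0.108).

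In a test of the difference in fold change between treatments, 9 of 13889 genes passed (0.0648%), all with the higher value in phenobarbital animals. DESeq2 called 18 higher and 56 lower. The 5 with the smallest p were mt-Tm, mt-Nd6, mt-Nd5, Fam171a1 and Prelp. mt-Tm rose by 1.32 in controls and by 2.41 in phenobarbital animals (difference 1.07 ± 0.14 SE, adjusted p = 0.0028). In heat-only liver its 6 control values ran from 9.72 to 18.6 CPM and its 6 phenobarbital values from 19.0 to 35.3 CPM, without overlap, while the frozen values of the treatments overlapped. mt-Nd6, another complex I subunit, rose by 0.81 in controls and 1.94 in phenobarbital animals (difference 1.10 ± 0.18, adjusted p = 0.022). mt-Nd5 showed 1.32 and 2.26 (difference 0.92 ± 0.16). Fam171a1, which encodes a membrane protein, and Prelp, which encodes a proteoglycan of connective tissue, are nuclear genes. For Fam171a1 the fold change was −0.58 in controls and 0.18 in phenobarbital animals (difference 0.74 ± 0.13), and for Prelp −0.13 and 0.36 (difference 0.46 ± 0.08). The number of calls moved with single animals. It was 1 without 8C, 2 without 75C, 82B or 8A, 5 without 21C or 90C, and 14 without 20B or 20D. Without 18B and 18D together 11 genes passed, and the differences for mt-Tm and mt-Nd5 were 0.90 and 0.71 (adjusted p = 0.0193 and 0.0246).

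Beyond the mitochondrial genome, the largest rises with no overlap held 2 microRNA precursors, Plppr2, Grik5 and Lars2. Mir6236 was at 12.1, 23.8 and 59.1 CPM in frozen liver and at 129, 219 and 395 CPM in heat-only liver (2.96 ± 0.21, adjusted p = 2.29e-11). Every heat-only value was above every frozen one. Mir6240 moved from 3.85, 7.64 and 14.3 CPM to 14.8, 27.8 and 66.4 CPM, with the states just apart (1.91 ± 0.17, adjusted p = 8.17e-10). Lars2 (chr9:123366927-123462666), the mitochondrial leucyl-tRNA synthetase, was at 21.9, 27.8 and 49.9 CPM and then at 58.2, 96.4 and 197 CPM (1.76 ± 0.14). Its reads, like those of Mir6236 and Mir6240, were not checked against ribosomal RNA.

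Plppr2, a phospholipid phosphatase-related membrane protein (chr9:21937033-21948907), was at 1.58, 2.45 and 3.67 CPM in frozen and 5.63, 8.95 and 16.0 CPM in heat-only liver (1.85 ± 0.12). Grik5 (chr7:25009849-25072346), a kainate receptor subunit, was at 3.93, 4.97 and 7.26 CPM and then at 11.0, 17.6 and 26.7 CPM (1.77 ± 0.08). Neither showed any overlap between states, and both were higher in 12 of 12 animals. The counts are per gene and do not tell exonic from intronic reads in these genes.

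**Figure D2:**
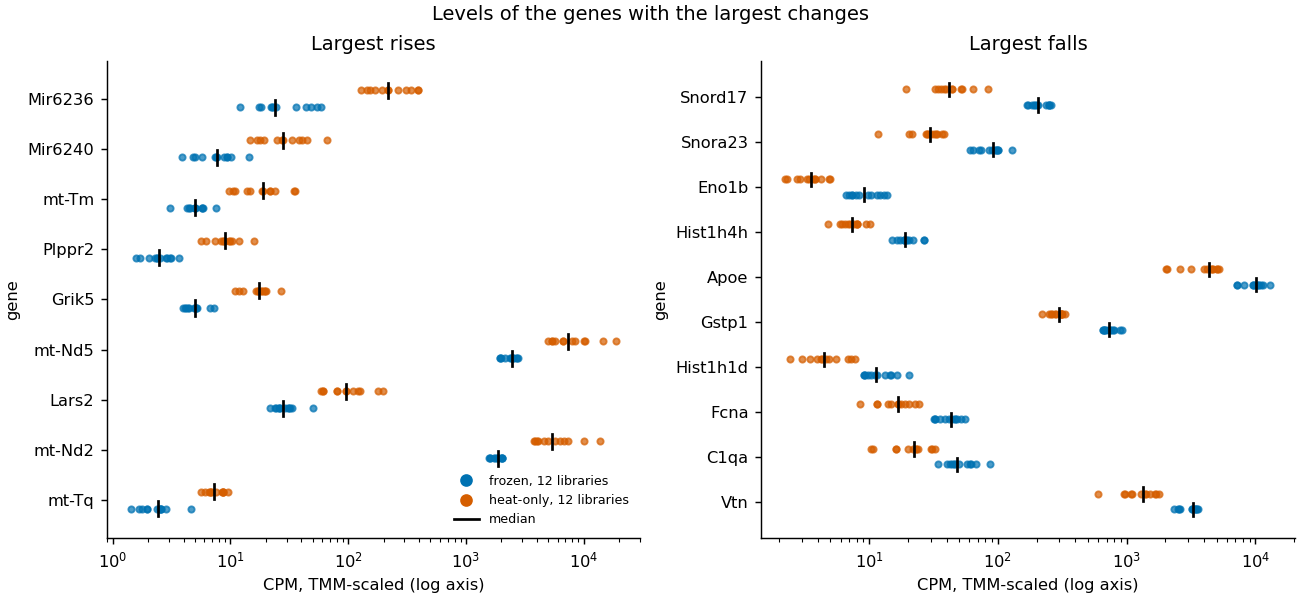
Level of 9 of the largest rises and the 10 largest falls among genes whose states did not overlap, in CPM on a log axis, with 1 point per library (12 frozen in blue, 12 heat-only in orange) and black bars at the medians. Mir6236 lies at 12.1 to 59.1 CPM in frozen and 129 to 395 CPM in heat-only liver, and Snord17 at 169 to 258 CPM and 19.5 to 84.5 CPM.

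The largest falls were in longer small nucleolar RNAs, histones and transcripts of secreted or detoxifying proteins. Snord17 had 169, 204 and 258 CPM in frozen liver and 19.5, 41.9 and 84.5 CPM in heat-only liver, far from overlap (−2.30 ± 0.10, adjusted p = 2.13e-14). Snora23 fell from 60.4, 92.3 and 128 CPM to 11.7, 29.7 and 38.5 CPM (−1.65 ± 0.10). Apoe (chr7:19696109-19699188), the apolipoprotein of remnant particles, fell from 7145, 10058 and 13051 CPM to 2026, 4344 and 5180 CPM (−1.38 ± 0.09, adjusted p = 8.24e-12). The highest heat-only library was below the lowest frozen library for each of them. Gstp1 (chr19:4035407-4037985), a glutathione S-transferase, was at 655, 730 and 924 CPM and then at 221, 296 and 334 CPM (−1.38 ± 0.06). Vtn, the plasma protein vitronectin (chr11:78499091-78502324), fell from 2348, 3263 and 3583 CPM to 600, 1348 and 1778 CPM (−1.30 ± 0.08). Fcna and C1qa, a lectin and a complement component made by liver macrophages, fell by 1.36 ± 0.07 and 1.32 ± 0.08 on the log2 scale. Fcna ranged from 31.7 to 55.4 CPM in frozen and from 8.55 to 24.4 CPM in heat-only liver. Hist1h4h, Hist1h1d and Eno1b completed the 10, with log2 fold changes of −1.42, −1.37 and −1.43. Histone genes and the enolase copy Eno1b have near-identical relatives, and reads could be split between these copies.

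The genes set for a look at known abundant RNAs behaved differently from each other. Alb, which encodes serum albumin (chr5:90460897-90476602), was at 28466, 48083 and 67936 CPM in frozen liver and 9412, 25615 and 35222 CPM in heat-only liver. It was lower in 12 of 12 animals, although the states overlapped (−1.09 ± 0.10, adjusted p = 1.24e-09). Malat1, a nuclear long noncoding RNA, was at 7993, 10095 and 11035 CPM and at 6722, 11028 and 15516 CPM, and its log2 fold change of 0.12 ± 0.07 did not pass (adjusted p = 0.146). Neat1, the scaffold of nuclear paraspeckles, had a value of 0.22 ± 0.11 (adjusted p = 0.102). Cyp2b10, the cytochrome P450 that phenobarbital induces through the receptor CAR, was at or below 0.476 CPM in all control libraries of both states. In phenobarbital animals it was at 1749, 2190 and 2671 CPM in frozen and at 818, 1257 and 1959 CPM in heat-only liver (over all animals −0.77 ± 0.08, adjusted p = 1.69e-08). The inducible gene thus kept a wide gap between treatments in the heat-only state. Control levels were too low to give a reliable fold change. The test of its difference in fold change between treatments (adjusted p = 0.97) therefore could not decide whether the fold changes differed. The fold change over all animals likewise rests mainly on the phenobarbital animals.

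Of 6 polymerase III and RNase P or MRP RNA genes tested, 1 was higher and 2 were lower (median −0.16). Wider annotation classes of small RNAs other than snoRNAs were mostly higher. The class misc_RNA was higher in 18 and lower in 1 of 22 genes (median 0.74), and snRNA genes in 15 and 1 of 19 (median 0.73). Rmrp, the RNA of RNase MRP, fell from 910, 1198 and 1363 CPM to 619, 797 and 1080 CPM in 12 of 12 animals with overlapping ranges (−0.56 ± 0.07, adjusted p = 3.5e-07). Rpph1, the RNA of RNase P, had a log2 fold change of 0.13 ± 0.10 over all animals (adjusted p = 0.247). Fitted alone, controls gave −0.18 (adjusted p = 0.0075) and phenobarbital animals 0.48 (adjusted p = 0.0017), and the difference between treatments, 0.64 ± 0.13, did not pass (adjusted p = 0.0645). Rn7sk, a regulator of transcription elongation, had −0.13 ± 0.07 (adjusted p = 0.109). Vaultrc5, a vault particle RNA, rose by 0.53 over all animals. Its mean went from 43.6 to 48.1 CPM in controls, which were not called alone (0.14, adjusted p = 0.0636), and from 49.1 to 91.5 CPM in phenobarbital animals, and the difference between treatments did not pass (0.77 ± 0.16, adjusted p = 0.0645). Rny1, a Y RNA, had a log2 fold change of −0.32 that barely passed (adjusted p = 0.0377). It did not pass without 18B, 20D, 21C, 80B, 82B or 8D singly (−0.26, −0.21, −0.30, −0.30, −0.29 and −0.27), without 18B and 18D together, with DESeq2, with no block, after thinning or in either treatment alone. The minor spliceosome RNA Rnu11 rose by 0.90, from 3.18 to 7.96 CPM in frozen to 6.30 to 15.1 CPM in heat-only liver.

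Of 53 snoRNA genes tested, 15 were higher and 18 lower (median 0.05), shares near those of all genes, and with library totals 23 were higher and 13 lower (median 0.31). The direction went with annotated length, a split chosen after the values were seen. Over 150 bases, 1 of 7 was higher and 5 were lower (median −1.12). Up to 150 bases, 14 of 46 were higher and 13 lower (median 0.09), and under 120 bases 4 of 7 were higher and 0 lower (median 0.40). Spearman's correlation of log2 fold change with length was −0.49 across these 53 genes, which share the same 24 libraries. Among named members, Snord104 (70 bases) rose by 0.40 and Snora31 (130 bases) by 0.58, while Snord15a (148 bases) fell by 0.97 and Snora73b (205 bases) by 1.10. The small Cajal body RNAs, guides for spliceosomal RNAs, were higher in 3 of 4 cases, with Scarna13 at 0.30 and Scarna6, which was not called, at 0.01.

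**Figure D3:**
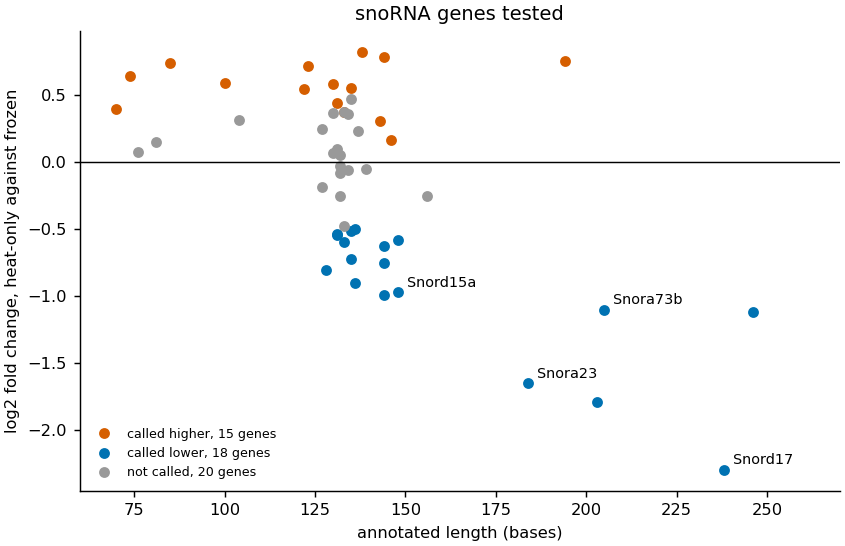
Log2 fold change of heat-only against frozen liver for the 53 snoRNA genes tested, against annotated length in bases, coloured by call. Of the 7 genes over 150 bases 5 were called lower, while the 7 genes under 120 bases lie above 0 and 4 of them were called higher.

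Calls differed between transcript classes and lengths. Protein-coding genes were called higher in 3443 and lower in 4505 of 12094 cases (median −0.04), and with library totals in 6604 and 2203 (median 0.22). Genes of the provisional annotation class TEC were higher in 517 and lower in 3 of 596 cases (median 0.72), and sense intronic genes in 90 and 0 of 105 (median 0.82). Long intergenic noncoding RNAs were higher in 131 and lower in 6 of 202 (median 0.46), and antisense genes in 131 and 4 of 203 (median 0.47). Antisense and overlapping genes rest on a strand setting for counting that is not given in the sources used here. Noncoding and TEC genes lying inside an intron of a protein-coding gene on its strand were higher in 513 and lower in 2 of 583 (median 0.75), against 432 and 15 of 658 (median 0.48) where no protein-coding gene lay on that strand. The difference between these placements was not tested.

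**Figure D4:**
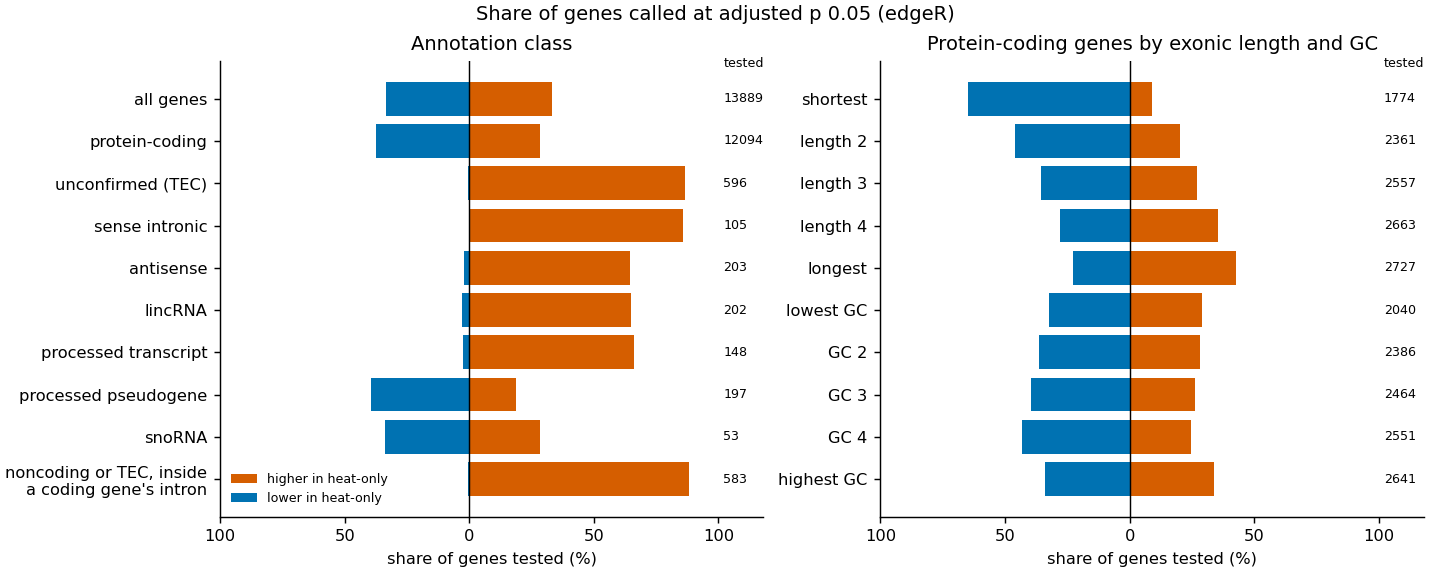
Share of genes tested that were called lower (blue, to the left) and higher (orange, to the right) in heat-only liver, in percent, by annotation class and, for protein-coding genes, by bins of exonic length and GC content, with the number tested at the right. TEC and sense intronic genes reach over 80% higher, and the balance moves from lower to higher between the shortest and the longest protein-coding genes.

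Within protein-coding genes, those of up to 2221 bases of exon were higher in 161 and lower in 1150 of 1774 cases (median −0.35). Those of 7369 bases or more were higher in 1164 and lower in 616 of 2727 (median 0.09). Spearman's correlation of log2 fold change with exonic length was 0.345 across 12082 protein-coding genes. It was 0.008 with GC content and −0.107 with mean level. These genes share libraries and are not independent replicates. A rank correlation does not capture changes that go up and down along the range of GC content. In GC bin 4 of 5, 631 of 2551 protein-coding genes were higher and 1105 lower (median −0.09). In GC bin 5, 892 of 2641 were higher and 896 lower (median 0.003). Per library, the shortest of 5 bins held 23.5% of counts on tested genes in frozen and 19.0% in heat-only liver, and the longest 21.2% and 26.3%, each shift being present in 12 of 12 animals (exact paired permutation test, adjusted p = 0.000698). GC shares shifted too. The lowest GC bin (28.65% to 43.86% GC) rose from 18.7% to 20.9% of counts. Bin 4 (51.2% to 55.06% GC) fell from 21.2% to 19.3%. Both shifts were present in 12 of 12 animals (same test, adjusted p = 0.000698). Bin 2 was lower in 11 animals (same test, adjusted p = 0.00172), and bins 3 and 5 did not pass. Mitochondrially encoded genes were left out of the length and GC bins, so their counts are not part of these shares.

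The lists of liver genes below are described by counts and medians, beside a median of 0.01 over all genes tested. Because many of these genes are short, some medians are also given after the median of protein-coding genes of each gene's length bin was subtracted. Medians printed without this second value are not set against length. Secreted plasma proteins made by hepatocytes were lower in 60 and higher in 1 of 62 genes (median −0.87, and −0.63 after the length bins), with 26 members apart between states. Hpx, the heme scavenger hemopexin, fell by 1.54, Fgb, a fibrinogen chain, by 1.10 and Apoa1, the main protein of high-density lipoprotein, by 1.21. Apoc2, the cofactor of lipoprotein lipase, was the 1 that rose, by 1.24, at levels of 0.85 to 4.08 CPM in frozen and 1.91 to 7.19 CPM in heat-only liver. Rbp4, the retinol carrier, was not called (−0.03).

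Nuclear genes for the respiratory chain and ATP synthase moved opposite to the mitochondrial genes with which their products assemble. Of 74 such genes 71 were lower and 1 was higher (median −0.71, and −0.45 after the length bins), and 56 had all heat-only values below all frozen values. Ndufv1, a complex I subunit, fell from 115, 140 and 159 CPM to 41.1, 67.3 and 72.4 CPM (−1.20 ± 0.06). Atp5k, an ATP synthase subunit, fell by 1.16. Ndufb2 rose by 0.25, with 10 of 12 animals higher, and Atp5j was not called (0.06). In phenobarbital animals alone Ndufb2 was at 0.12 and was not called. Mitochondrial ribosomal proteins were lower in 67 and higher in 3 of 77 genes (median −0.45, and −0.26 after the length bins). They ran from Mrpl16 at −0.99 to Mrpl18 at 0.33.

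Cytosolic ribosomal proteins were lower in 65 and higher in 1 of 83 genes (median −0.35), but the median after the length bins was −0.07, 2 genes were apart between states, and with library totals 16 were higher and 34 lower. Rpl18 fell by 0.80 and Rps4l by 0.90, Rps16 rose by 0.22, and Rps2 was not called (−0.09). Several ribosomal protein genes have near-identical copies that could split reads. Translation factors were lower in 24 and higher in 6 of 36 (median −0.28, and −0.19 after the length bins), and with library totals 14 and 15. Eif3d and Eif3c, subunits of the initiation factor that binds the small ribosomal subunit, fell by 0.91 and 0.90, while Pabpc1, the poly(A)-binding protein, rose by 0.63 and Tpt1 by 0.44. Eif4g2 was not called (0.02).

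Proteasome subunits were among the most uniform groups. Of 31 genes 30 were lower and 0 higher (median −0.85, and −0.65 after the length bins), and 27 were apart between states. Psmb6, a subunit of the proteolytic core, fell from 92.3, 104 and 116 CPM to 34.9, 48.7 and 61.9 CPM (−1.13 ± 0.06), and Psmc3, an ATPase of the regulatory cap, by 1.12. The 12 heat-only values of Psmb6 were all below the 12 frozen values. Psmd11 was the 1 member not called (−0.03).

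Metabolic enzymes of the liver were mostly lower. Urea cycle and amino acid catabolism genes were lower in 27 and higher in 0 of 30 (median −0.62, and −0.54 after the length bins). Gnmt, which uses S-adenosylmethionine, was at −1.06 and Hpd, of tyrosine breakdown, at −1.05. Fatty acid oxidation genes were lower in 27 and higher in 0 of 28 (median −0.55, and −0.40 after the length bins). The thiolase Acaa2 was at −1.21 and the dehydrogenase Acadvl at −1.10. Among gluconeogenesis and glucose handling genes, 13 were lower and 2 higher of 18. The enzyme Fbp1 fell by 1.19 and the transporter Slc37a4 by 1.01, while Foxo1 and Ppargc1a, regulators of this pathway, rose by 0.55 and 0.27. Foxo1 was at 35.9, 46.5 and 52.1 CPM in frozen and 57.6, 65.6 and 73.2 CPM in heat-only liver, without overlap. Drug-metabolising cytochrome P450 genes were lower in 25 and higher in 1 of 31 (median −0.58, and −0.32 after the length bins). Cyp2d10 and Cyp2a12 fell by 1.07 and 1.03, and Cyp2u1 rose by 0.24. Cholesterol and fatty acid synthesis genes were lower in 21 and higher in 2 of 30 (median −0.25), but with library totals in 6 and 9. Acly and Fdft1 both fell by 0.72, the factor Srebf2 and the elongase Elovl6 rose by 0.16 and 0.19, and the desaturase Scd1 was not called (0.09). The Srebf2 call was lost in controls alone (0.047), with no block and after thinning, and the Elovl6 call with no block.

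**Figure D5:**
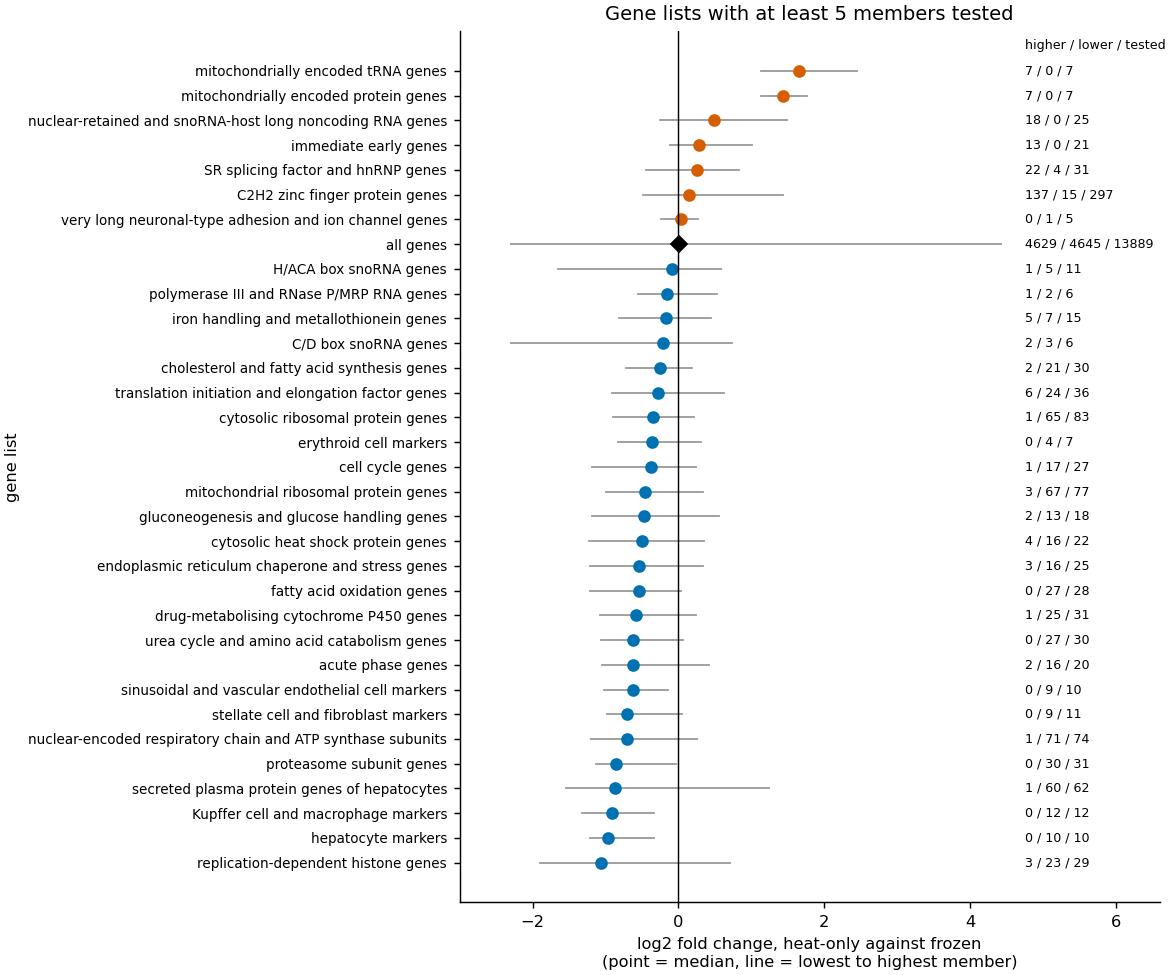
Median log2 fold change of heat-only against frozen liver for each gene list with at least 5 members tested (point), with a line from the lowest to the highest member and the numbers called higher, called lower and tested at the right. Mitochondrially encoded genes lie at the top, with medians of 1.65 and 1.44, and histone genes at the bottom, with −1.07, while all genes tested have a median of 0.01.

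Stress and signalling genes did not move as 1 group. Cytosolic heat shock genes were lower in 16 and higher in 4 of 22 (median −0.50), with the chaperone Hsp90aa1 at −1.22 and the small heat shock gene Hspb1 at −1.17. Hsf1, the factor that switches these genes on, rose by 0.30 and Cryab by 0.35, and the inducible Hspa1b was not called (−0.08). The Cryab call was lost in either treatment alone and after thinning. Endoplasmic reticulum chaperone and stress genes were lower in 16 and higher in 3 of 25, with Hspa5 at −1.21, Calr at −1.12, the sensor Ern1 at 0.27 and the factor Ddit3 at 0.34. Acute phase genes were lower in 16 and higher in 2 of 20 (median −0.63), with Orm1 and Orm2 at −1.05 and −1.04 and the higher pair being Il6ra, the receptor of interleukin 6 (0.42), and its feedback inhibitor Socs3 (0.32). Immediate early genes were higher in 13 and lower in 0 of 21 tested (median 0.28, and 0.45 after the length bins). Egr1 rose by 0.76 in 11 of 12 animals, from 0.955 to 37.4 CPM in frozen to 2.20 to 75.1 CPM in heat-only liver, and Nr4a1 by 1.01 at levels of 0.131 to 1.79 CPM.

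Genes of RNA processing and transcription tended to be higher. SR splicing factor and hnRNP genes were higher in 22 and lower in 4 of 31 (median 0.26, and 0.24 after the length bins). Luc7l2, a U1-associated factor, was at 250, 309 and 335 CPM in frozen and 349, 553 and 794 CPM in heat-only liver (0.83 ± 0.06). Srsf11 rose by 0.81 without overlap, Hnrnpk and Hnrnpf fell by 0.44 and 0.27, and Son was not called (0.07). Zinc finger protein genes were higher in 137 and lower in 15 of 297 tested, of 374 annotated (median 0.15). Zfp579 and Zfp362 rose by 1.44 and 1.07, each without overlap, and Zfp622 and Zfp110 fell by 0.48 and 0.45. Nuclear-retained and snoRNA-host long noncoding RNAs were higher in 18 and lower in 0 of 25 (median 0.49). Snhg3, a snoRNA host, was at 0.698, 1.64 and 2.04 CPM and then at 3.15, 4.14 and 5.50 CPM (1.43 ± 0.14), and Meg3, an imprinted RNA, rose by 1.49.

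Replication-dependent histone genes, whose messages end in a stem-loop rather than a poly(A) tail, were lower in 23 and higher in 3 of 29 tested, and 40 of the 69 annotated did not pass the filter on low counts (median −1.07, and −0.72 after the length bins). Hist1h4h fell from 15, 19.1 and 26.9 CPM to 4.77, 7.33 and 10.2 CPM without overlap (−1.42 ± 0.09). Hist1h4n and Hist1h2bb fell by 1.89 and 1.55. Hist3h2a and Hist2h2be were higher by 0.70 and 0.55, each in 11 of 12 animals. Cell cycle genes were lower in 17 and higher in 1 of 27 (median −0.37), with the clamp Pcna at −1.19 and the helicase subunit Mcm3 at −0.89. The call of the cyclin Ccnd1 (0.13, adjusted p = 0.0469) was lost without 18B, 20B, 20D, 21C, 75C, 80B or 8A singly (0.13, 0.13, 0.13, 0.12, 0.098, 0.12 and 0.13), with limma voom, no block, no filter or thinning, and in controls alone. Iron handling and metallothionein genes were lower in 7 and higher in 5 of 15, with the ferritin heavy chain Fth1 at 0.44, the importer Slc39a14 at 0.40 and the receptor Tfr2 at −0.82.

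Markers of each liver cell type with several members tested were lower. Hepatocyte markers were lower in 10 of 10 (median −0.96) and Kupffer cell and macrophage markers in 12 of 12 (median −0.91). Endothelial markers were lower in 9 of 10 (median −0.63) and stellate cell and fibroblast markers in 9 of 11 (median −0.70). After the length bins the medians, in this order, were −0.75, −0.70, −0.63 and −0.44. Clec4f, a Kupffer cell lectin, fell from 91.9, 125 and 195 CPM to 30.4, 59.9 and 90.9 CPM (−1.10 ± 0.08), just without overlap. The endothelial genes Oit3 and Kdr fell by 1.02 and 0.87, and the matrix genes Col3a1 and Dcn by 0.98 and 0.97. Of the 2 cholangiocyte markers tested of 8, Sox9 rose by 0.76 and Spp1 fell by 0.75. The neutrophil genes S100a8 and S100a9 fell by 1.67 and 1.51 from levels of at most 5.10 and 7.05 CPM. Erythroid markers were lower in 4 and higher in 0 of 7 (median −0.36, and −0.07 after the length bins). Hbb-bs, a globin of red cells, was the lowest of them at −0.83, lower in 11 of 12 animals, and 1 heat-only library had the highest value of all, 350 CPM. Cela1, the 1 acinar marker tested, fell by 0.28. Their part in the other results was not tested.

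The heat-only libraries were then set directly against their nearest states in the series, 12 libraries each from the same animals. Portions with 3 months in formalin without the 55 °C incubation differed in 3822 genes that were higher in heat-only liver (28.8% of 13283 tested) and 3598 that were lower (27.1%). Which kit served those portions is not given in the sources used here. Incubation and kit cannot be told apart there. Hsd3b7, a bile acid synthesis enzyme, was at 1.59, 2.62 and 4.33 CPM in untreated formalin and 5.65, 11.3 and 16.0 CPM in heat-only liver (2.01 ± 0.15, adjusted p = 1.99e-10), and it did not pass against frozen (0.11). Pisd-ps1, a transcribed pseudogene, was higher by 1.93 ± 0.15. Rny1 fell from 33.6, 121 and 427 CPM to 4.90, 6.83 and 11.4 CPM without overlap (−4.25 ± 0.20, adjusted p = 1.88e-13). Snord16a, which did not pass the filter against frozen, fell by 4.72 ± 0.23 to between 0.166 and 1.08 CPM.

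Against untreated formalin 8 of 98 listed C/D box and 14 of 40 listed H/ACA box snoRNA genes passed the filter. Each of these 8 and 14 was lower in heat-only liver (medians −2.91 and −2.53). The lists do not hold every annotated snoRNA gene. Of 50 snoRNA genes tested both there and against frozen liver, 46 were lower and 2 higher (median −2.90). Snora23 had a log2 fold change of −3.04 ± 0.27 there. Mitochondrial protein genes were lower in 5 of 7 (median −0.56), mt-Nd1 by 0.98 ± 0.17, while mt-Co1 did not pass (−0.17 ± 0.14, adjusted p = 0.301). Without animals 18B and 18D mt-Co1 was at −0.33 and passed (adjusted p = 0.0096). Malat1 and Neat1 were higher in heat-only liver by 0.79 ± 0.08 and 0.99 ± 0.09. Of 62 secreted plasma protein genes 17 were higher and 23 lower (median −0.03), with Apoe at 0.43 and Alb at −0.36. Proteasome subunits were higher in 9 and lower in 3 of 31.

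Portions that had the same incubation and kit but with the organocatalyst differed less. Of 13807 genes tested 814 were higher in heat-only liver (5.9%) and 1116 lower (8.08%). Without animals 18B and 18D these were 369 and 628, without phenobarbital animals 75C and 18D each 510 and 514 were higher, and without 21C, 75C and 90C each 715, 728 and 738 were lower. For no gene did the 12 heat-only values all lie on 1 side of the 12 values with catalyst. All 7 mitochondrial protein genes tested were higher in the heat-only state (median 0.70). mt-Nd1 was at 4368, 5395 and 6530 CPM with catalyst and 5448, 8337 and 20198 CPM in heat-only liver, higher in 12 of 12 animals with overlapping ranges (0.69 ± 0.12, adjusted p = 0.000893). mt-Tm differed by 0.95 ± 0.12 and Mir6236 by 0.74 ± 0.13. Proteasome subunits were lower in 23 and nuclear respiratory chain genes in 42 of 74, with 0 higher in both (medians −0.22 and −0.17). Gstp1 was lower in 12 of 12 animals (−0.29 ± 0.04, adjusted p = 3.75e-04), and Snord17 in 10 (−0.77 ± 0.13).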

How the data were processed

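Members and gene lists were chosen with earlier results of these data known. The deposited table holds raw counts per Ensembl gene, whole numbers that the authors did not normalize. CASAVA, STAR 2.5 and edgeR are named in the submitters' processing notes, with GRCm38 and mm10 as builds. Not given in the sources used here are the counting tool, its annotation and its use of strand. The 92 spike-in lines held 0 counts in the 24 libraries and were left out. Of 47373 genes 46954 were found in GENCODE M21 (GRCm38), the source of symbols, exonic lengths and 1-based coordinates. The deposited normalized table was not used.

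Each state and animal gave 1 library, grouped by title. Same-animal libraries came from 1 liver, so the animal was a block. Deviations from the group means over 13889 genes correlated above 0.1 in 12 of 12 pairs (0.308 to 0.733, median 0.50, against −0.0852 for other animals). Subtracting group means by itself makes the value for other animals negative when same-animal values are positive, so it is not an independent baseline. No libraries held identical counts. Tests used edgeR 4.0.16 in R 4.3.3, its quasi-likelihood F test, TMM scaling, the default filter (about 10 counts in as many libraries as a state holds) and Benjamini-Hochberg adjustment at 0.05. Each SE was the log2 fold change over the root of F. Levels are CPM scaled by TMM within each comparison. With this block or pairing, p-values rest on the spread of the within-animal differences across animals, with 1 library per state and animal. Measures of library makeup were tested by exact permutation, two-sided, adjusted over 20 measures. Library totals limit the precision of low counts, and the labels name no molecular identifiers that would tell PCR copies apart.

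The genes named are 10 fixed genes, 10 rises and 10 falls of largest size among called genes at 5 CPM or more without overlap of states, up to 2 called members each way and 1 uncalled member of a list, the 5 smallest p of the treatment difference, and 2 each way for the direct comparisons. Predicted genes were passed over. Of the genes so chosen, 1 is not reported here. Alternatives were DESeq2 1.42.0, limma 3.58.1 voom, RLE scaling, library totals alone, no filter, thinning, no block, 1 treatment alone, no mitochondrial genes, and each animal left out. Leaving out 18B and 18D together was added after seeing the data. The scripts were tested on simulated data.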

Additional observations from a re-analysis of the deposited data

Results flagged for a closer look

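In 6 of 192 groups of 6 libraries of 1 state and treatment, over 28 genes and 20 measures of makeup, 1 library lay far from the others by Dixon's criterion, which chance meets in about 1 in 20 groups. Cyp2b10 was at 0.4761 CPM in the heat-only control library of animal 82B, where the median of the 6 was 0. Rmrp was at 1080 CPM in the heat-only phenobarbital library of 18D. Lars2 was at 49.94 CPM in the frozen phenobarbital library of 75C, which also had the highest share of length bin 4 in its group, 18%. The frozen control library of 8C had 16456535 counts on genes, and the frozen phenobarbital library of 20B had 12409 genes with at least 10 counts after thinning.

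The fold change of heat-only against frozen liver differed between phenobarbital and control animals for 9 genes. The difference was 1.07 for mt-Tm, 1.10 for mt-Nd6, 0.92 for mt-Nd5, 0.74 for Fam171a1, 0.46 for Prelp, 0.82 for mt-Nd4, 0.46 for Irf7 (an interferon response factor), 0.89 for mt-Nd2 and 0.61 for Rgs5 (a regulator of G-protein signalling). All 9 were higher in phenobarbital animals. The difference was −1731742.3 for total counts and 4.67 percentage points for the mitochondrial share.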

How the results depend on the processing

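Of 3207 recomputed values of single genes 3108 kept direction and side of the threshold, 57 no longer passed, 24 newly passed and 18 changed sign. With library totals alone, 8057 genes were higher and 2287 lower, and the values of Rn7sk, Rps2, Rbp4, Hspa1b and Psmd11 were 0.13, 0.17, 0.23, 0.18 and 0.23. In control animals alone those of Rpph1, Rbp4 and Hspa1b were −0.18, 0.061 and 0.0017. Rbp4 was at 0.0077 with limma voom and at 0.052 without animals 18B and 18D. Leaving out 1 animal gave −0.032 to 0.051 for Scarna6, −0.053 to 0.025 for Rbp4, −0.0056 to 0.061 for Eif4g2 and −0.047 to 0.0067 for Psmd11. The other counts against frozen liver stayed within 1.5 times, 4461 to 4847 higher and 4225 to 4624 lower with 1 animal left out.

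With no replicate block, so without the pairing by animal, 3940 genes were higher and 3972 lower against frozen liver. Against the catalyst state 37 were higher and 86 lower, and the treatment difference gave 0 calls. DESeq2 gave 18 and 56 calls of that difference. Leaving out 1 animal gave 1 to 14 higher and 0 to 1 lower, and against the catalyst state 510 to 931 higher and 715 to 1121 lower. Without 18B and 18D the latter were 369 and 628. The change in the share of the 10 most abundant genes (0.03 points) was −3.75 without mitochondrial genes, −1.11 without 18B and 18D and −0.64 to 0.26 with 1 animal left out. GC bin 3 changed by 0.28 points without 18B and 18D and by 0.15 to 0.26 with 1 left out, and GC bin 5 by 0.19 to 0.55. The treatment difference in total counts was −1173640 without 18B and 18D and −1939330 to −1318370 with 1 left out. That in the mitochondrial share was 2.82, 3.57 to 5.34, and 4.67 after thinning (adjusted p = 0.0823). The causes of these shifts were not tested. Genes under the filter were not testable at these library totals.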

Other observations

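Several predicted genes, passed over by the rule for names and singled out after their values were seen, lay among the extremes. Gm13340 (chr2:22588103-22589647), annotated as an unprocessed pseudogene, had a mean of 2.23 CPM in frozen and 34.5 CPM in heat-only liver, with no overlap (3.92 ± 0.10, SE). Gm15564 (chr16:35966752-35983230), annotated as antisense, went from 1.04 to 9.97 CPM (3.21 ± 0.25). Its longest run of bases shared with Lars2, which also rose, is 52 bases. The neighbouring loci Gm26917 and Gm42418 on chromosome 17 moved in opposite directions, from 7658 to 3286 CPM (−1.45 ± 0.20, higher in 1 of 12 animals) and from 404 to 1117 CPM (1.39 ± 0.15, higher in 12 of 12). Reads at Gm15564, Gm26917 and Gm42418 were not checked against ribosomal RNA.

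After thinning to the smallest total count, which left the libraries' makeup different, genes with at least 1 count numbered more by 764 ± 355 in heat-only liver (SD, n = 12) and genes with at least 10 counts by 635 ± 182, each in 12 of 12 animals (exact paired permutation test, adjusted p = 0.000698). The 100 most abundant genes took 41.2% of counts in frozen and 36.9% in heat-only liver.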
